A study of Mus musculus with 16 samples.

Results

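The mouse microRNAs mmu-miR-192, mmu-miR-194 and mmu-miR-215 (3 miRNAs, here written without the species prefix) are encoded by 2 small genomic clusters, and they were followed here across 16 samples of mouse liver. The members were taken as the array features whose gene name equals one of these names, which gave 3 of the 566 mouse miRNAs on the array. miR-192 and miR-194 were detected on all 16 arrays and miR-215 on 0.

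The liver came from male C3H/HeJ mice, an inbred strain prone to liver tumours, and each array held 1 sample. The 4 groups, by the sample titles, were 7 Ctnnb1-mutated liver tumours and 3 non-tumour livers of mice given phenobarbital by mouth, and 3 Ha-ras-mutated liver tumours and 3 non-tumour livers of mice whose labels give water as the agent. The first non-tumour group is called phenobarbital controls and the last untreated controls. Ctnnb1 encodes beta-catenin, the effector of Wnt signalling, Ha-ras encodes a small GTPase of growth factor signalling, and phenobarbital is a tumour promoter. The series' design text has animals injected with diethylnitrosamine (DEN), a liver carcinogen, at 10 or 90 µg per g at 2 or 6 weeks of age, then kept on 0.05% phenobarbital diet or none for 28 to 36 weeks, whereas the labels state 27 weeks for both arms and the treatment protocol has phenobarbital in the drinking water for 28 days. The sources do not tie a dose, an age or carcinogen exposure to single samples, so that in comparisons across the phenobarbital and water arms these cannot be told apart from phenobarbital. No source states whether different animals gave the samples of one group, and the p-values measure the spread between these samples, which may be technical.

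miR-192 and miR-194 are abundant in liver, gut and kidney epithelium, and transcription factors of the hepatocyte nuclear factor family (HNF1 and HNF4) are known to drive both clusters. miR-192 and miR-215 carry the same seed, the bases that pair with target transcripts, and in human cells both have been linked to p53 and to arrest of the cell cycle. miR-194 has another seed and marks differentiated epithelial cells of liver and intestine. One primary transcript yields miR-194 and miR-192, and the other yields miR-194 and miR-215, so mature miR-194 can come from either.

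The mature sequences are shown because they define what a probe can tell apart. They are RefSeq's (GRCm38.p6) and run 5′ to 3′, and the capitals mark the seed, bases 2 to 8.
miR-192: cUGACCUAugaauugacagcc
miR-215: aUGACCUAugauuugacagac
miR-194: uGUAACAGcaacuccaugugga
miR-192 lies at chr19:6264857-6264877 and miR-215 at chr1:185313610-185313630, both on the plus strand. They agree at 18 of 21 bases and differ by C1A, A12U and C20A (miR-192's base first, counted from 1 at the 5′ end), all outside the seed. In the RefSeq table only these 2 mature miRNAs hold the seed UGACCUA, and only miR-194 holds GUAACAG.

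Both precursors of miR-194 are shown because they release the same 22 bases, given in capitals, so that the array cannot assign the mature miRNA to a cluster.
Mir194-1: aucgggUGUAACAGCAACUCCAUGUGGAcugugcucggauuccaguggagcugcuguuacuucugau
Mir194-2: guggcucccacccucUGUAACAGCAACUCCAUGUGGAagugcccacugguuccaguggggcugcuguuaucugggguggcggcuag
The Mir194-1 copy of the mature sequence lies at chr1:185313325-185313346 and the Mir194-2 copy at chr19:6264658-6264679, both on the plus strand. The Mir194-1 hairpin ends 195 bases before that of Mir215, within the span of the gene Iars2. The Mir194-2 hairpin ends 115 bases before that of Mir192, and the nearest annotated genes are Atg2a on one side and Gm14963 on the other.

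Across the arrays, 83 to 117 mouse miRNAs were detected, and the share of spots well above background ran from 11.7% to 16.5%. Signals were scaled by each array's 75th percentile over the probes detected everywhere and are given as log2 levels, with a floor of 4.64 for dim probes. The number of arrays limits the precision. The arrays came from 3 slides: slide 1 carried every Ctnnb1 tumour plus replicate 1 of the Ha-ras tumours, slide 2 held phenobarbital control replicates 4 and 5, untreated control replicate 1 and Ha-ras tumour replicates 2 and 3, and slide 3 held phenobarbital control replicate 6 and untreated control replicates 2 and 3. As a check of the tissue, both hepatocyte markers, miR-122 and miR-148a, were detected on all 16 arrays. Of the biliary and other epithelial markers (miR-200a, miR-200b, miR-200c, miR-141, miR-429 and miR-375), 4 of 6 were detected on 0 arrays and none of the 6 on every array of a group.

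miR-215 gave no measurable signal in any tumour or control. Of its 312 usable spots over the 16 arrays, 0 were well above background, and the scanner software called it detected on 0 arrays. The mean signal of a miR-215 probe on an array lay between -3.84 and 0.681 after background subtraction and before scaling, and 31 of these 32 values were at or below 0. On the same arrays 309 of 309 usable miR-192 spots were well above background, with probe signals from 562 to 4636. No fold was computed for miR-215, since every group was below background, and it took no part in the tests.

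At the 75th percentile scaling miR-192 was present at a steady level in all 4 groups. In phenobarbital controls its log2 level was 10.59, 10.72 and 10.76 in replicates 4, 5 and 6, a mean of 10.69 ± 0.09 (SD, n = 3). In the 7 Ctnnb1 tumours it ran from 10.15 through a median of 10.47 to 10.64, a mean of 10.48 ± 0.18 (SD, n = 7). Tumours and controls overlapped: 4 of the 7 tumours lay below all 3 controls and 0 above. Untreated controls had 10.78, 10.67 and 10.49 in replicates 1, 2 and 3, a mean of 10.65 ± 0.14 (SD, n = 3). Ha-ras tumours had 10.37, 10.697 and 10.38, a mean of 10.48 ± 0.19 (SD, n = 3). Here too the groups overlapped, with 2 of the 3 tumours below every control.

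miR-194, the partner on both transcripts, varied more. Phenobarbital controls had log2 levels of 7.67, 7.77 and 7.76 in replicates 4, 5 and 6, a mean of 7.73 ± 0.05 (SD, n = 3). Untreated controls had 8.09, 7.98 and 7.99 in replicates 1, 2 and 3, a mean of 8.02 ± 0.06 (SD, n = 3). Every phenobarbital control lay below every untreated control at this scaling. The Ctnnb1 tumours ran from 7.11 in replicate 7 through a median of 7.70 to 8.61 in replicate 5, a mean of 7.75 ± 0.46 (SD, n = 7), and so spanned both control groups. Ha-ras tumours had 7.91, 8.33 and 8.54, a mean of 8.26 ± 0.32 (SD, n = 3), with replicates 2 and 3 above all controls and replicate 1 just below the untreated ones. The order of the group means was phenobarbital controls, Ctnnb1 tumours, untreated controls and Ha-ras tumours, and of the neighbours in it, all pairs overlapped. Levels here are in arrays of bulk tissue, in which fewer cells of a type and less RNA per cell cannot be told apart.

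**Figure D1:**
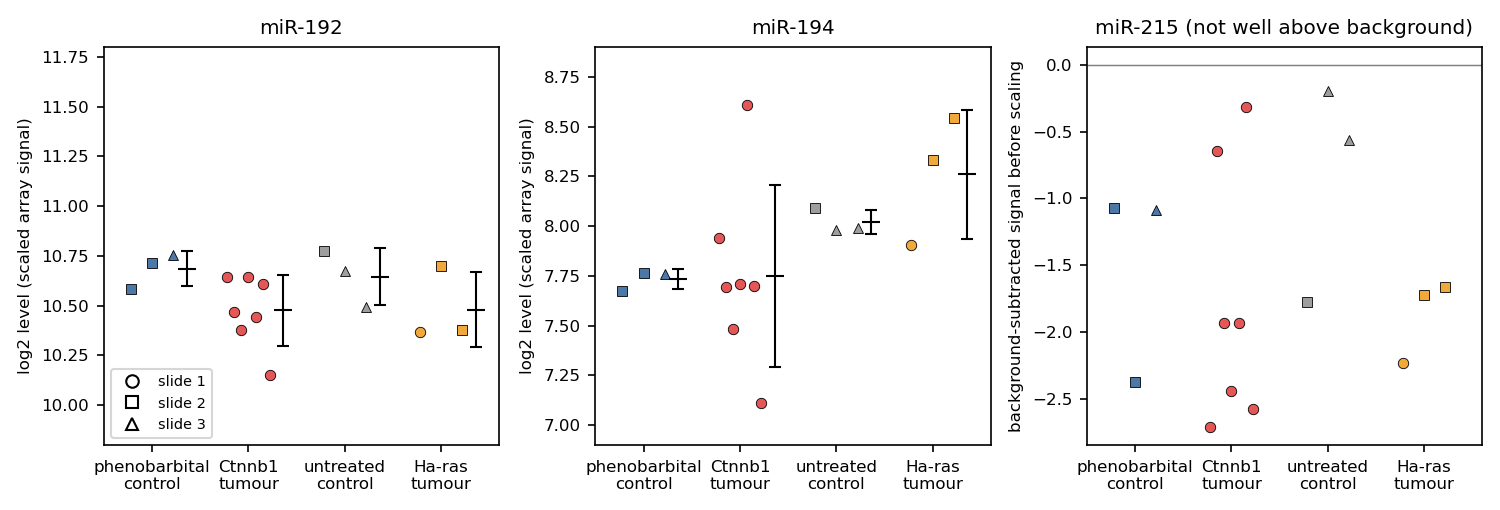
Log2 levels of miR-192 and miR-194 (left and middle, axes of equal length) and the background-subtracted signal of miR-215 before scaling (right) on each array, by group. Points are arrays, shapes are slides, and bars (left and middle) give the mean and SD of a group. miR-192 stayed between 10.15 and 10.78, miR-194 ran from 7.11 to 8.61, and the mean miR-215 signals all lay below 0.

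At the 75th percentile scaling miR-194 was tight in the controls and wide in the Ctnnb1 tumours, given here as a description. Among the 72 miRNAs detected on all arrays, its SD over the 6 control arrays around their group means, 0.06, was the third lowest, against a median of 0.14. Its SD among the Ctnnb1 tumours, 0.46, ranked 63rd from the lowest, against a median of 0.30. miR-192 ranked 23rd in the controls (0.12) and 11th among the Ctnnb1 tumours (0.18). The contrast for miR-194 depended on the values used. With scaling on all mouse probes it ran from 6.92 to 8.01 in phenobarbital controls and 7.56 to 8.46 in untreated controls. The Ctnnb1 tumours then ran from 7.13 to 8.21, no wider than the controls. In the deposited values the SD was 0.07 in phenobarbital controls, 0.25 in untreated controls and 0.36 in Ctnnb1 tumours.

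The first comparison asked whether Ctnnb1 tumours differ from the phenobarbital controls of the same arm. Neither member was called: miR-192 had a log2 fold change of -0.21 (SE 0.12, 95% interval -0.46 to 0.05, limma adjusted p = 0.319) and miR-194 of 0.02 (SE 0.23, interval -0.47 to 0.50, adjusted p = 0.964). Over all 96 miRNAs tested 8.33% were called in this comparison. On the linear scale the interval runs from 0.725 to 1.03 times the control level for miR-192. For miR-194 it runs from 0.722 to 1.42 times. Changes within these bounds were not excluded. No slide held both groups. Of 5 mesenchymal markers 2 were tested, and 1 of these, miR-199a-3p, was called lower in the tumours (-1.16, adjusted p = 0.00187), while miR-143 was at -0.31 (adjusted p = 0.272). The summed log2 level of the list was 7.06 to 7.40 in the tumours and 7.71 to 7.77 in the controls, with miR-214 and miR-145 detected on 0 arrays. Only 1 of the 5 was detected on all 16 arrays. Values below the floor enter a sum at 4.64, so the lowest tumour sum lay little above what 5 miRNAs at the floor give. The endothelial marker sum was 9.11 to 9.63 in the tumours and 9.65 to 9.67 in the controls. Of 2 endothelial markers 1 was tested, miR-126-3p, which was not called (-0.28, adjusted p = 0.154). The part of the mesenchymal and endothelial markers in the result was not tested.

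The second comparison set Ha-ras tumours against untreated controls. miR-192 had a log2 fold change of -0.17 (SE 0.14, interval -0.47 to 0.13, adjusted p = 0.425). miR-194 had one of 0.24 (SE 0.27, interval -0.34 to 0.82, adjusted p = 0.539). Neither passed, where 29.2% of all tested miRNAs did. Within slide 2, with 2 tumours and 1 control, the values were -0.24 (adjusted p = 0.443) and 0.35 (adjusted p = 0.183). Both tested mesenchymal markers, miR-199a-3p and miR-143, were called lower in the tumours (-1.51 and -0.68, adjusted p = 0.000509 and 0.0146). Their list had summed log2 levels of 7.03 to 7.07 against 7.37 to 7.99. All 3 tumour sums lay little above what 5 miRNAs at the floor give, so the floor may limit the size of both differences. The endothelial marker sums overlapped, at 9.04 to 9.39 against 9.30 to 9.59, and miR-126-3p was not called (-0.30, adjusted p = 0.141). The part of the mesenchymal and endothelial markers was not tested.

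Between the tumour kinds, miR-192 had nearly equal means and miR-194 its largest difference of the 5 comparisons. miR-192 differed by -0.00361 on the log2 scale between Ctnnb1 and Ha-ras tumours (SE 0.12, interval -0.26 to 0.25, adjusted p = 0.987). With arrays scaled on all mouse probes it differed by -0.55 (adjusted p = 0.158), where the median of all tested miRNAs was at -0.32. miR-194 was 1.43-fold lower on average in Ctnnb1 tumours (log2 fold change -0.51, SE 0.23, interval -0.999 to -0.02), with an unadjusted p of 0.0409 in limma and an adjusted p of 0.109, which did not pass. An unadjusted p under 0.05 was reached by 38.5% of all tested miRNAs. Of the 7 Ctnnb1 tumours, 5 lay below all 3 Ha-ras tumours, replicate 1 lay just above the lowest of them, and replicate 5 lay above all. Leaving out 1 array at a time, the difference ran from -0.69 to -0.37 (limma adjusted p = 0.0107 to 0.362). It passed only without Ctnnb1 tumour replicate 5, the highest for miR-194, at -0.65 (adjusted p = 0.0107). With every array in the fit, 30.2% of all tested miRNAs passed here. The hepatocyte marker sum had a log2 level of 13.23 to 14.24 in Ctnnb1 and 14.04 to 14.51 in Ha-ras tumours. Of its 2 miRNAs, miR-122 was called lower in Ctnnb1 tumours and miR-148a was at 0.17 (adjusted p = 0.376). Of 5 leukocyte markers 2 were tested and 1, miR-223, was called higher in Ctnnb1 tumours (0.82, adjusted p = 0.0188), with summed log2 levels of 8.25 to 9.07 against 7.80 to 8.92 and miR-150 and miR-155 detected on 0 arrays. The part of these markers was not tested.

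Every Ctnnb1 tumour came from the phenobarbital arm and every Ha-ras tumour from the water arm. In this comparison the mutation and phenobarbital therefore cannot be told apart. Slide and tumour kind were partly confounded too. On slide 1, where a single Ha-ras tumour, the lowest of the 3 for miR-194, stood beside the 7 Ctnnb1 tumours, miR-194 differed by -0.16 (adjusted p = 0.882). A fit with slide as a fixed block rests on that same array and gives the same -0.16, so that it is no second comparison. With slide as a random block the difference was -0.58 (adjusted p = 0.0345). That fit estimated a correlation within slides of -0.115, below 0. The 3 Ha-ras tumours ran from 7.91 on slide 1 to 8.33 and 8.54 on slide 2.

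**Figure D2:**
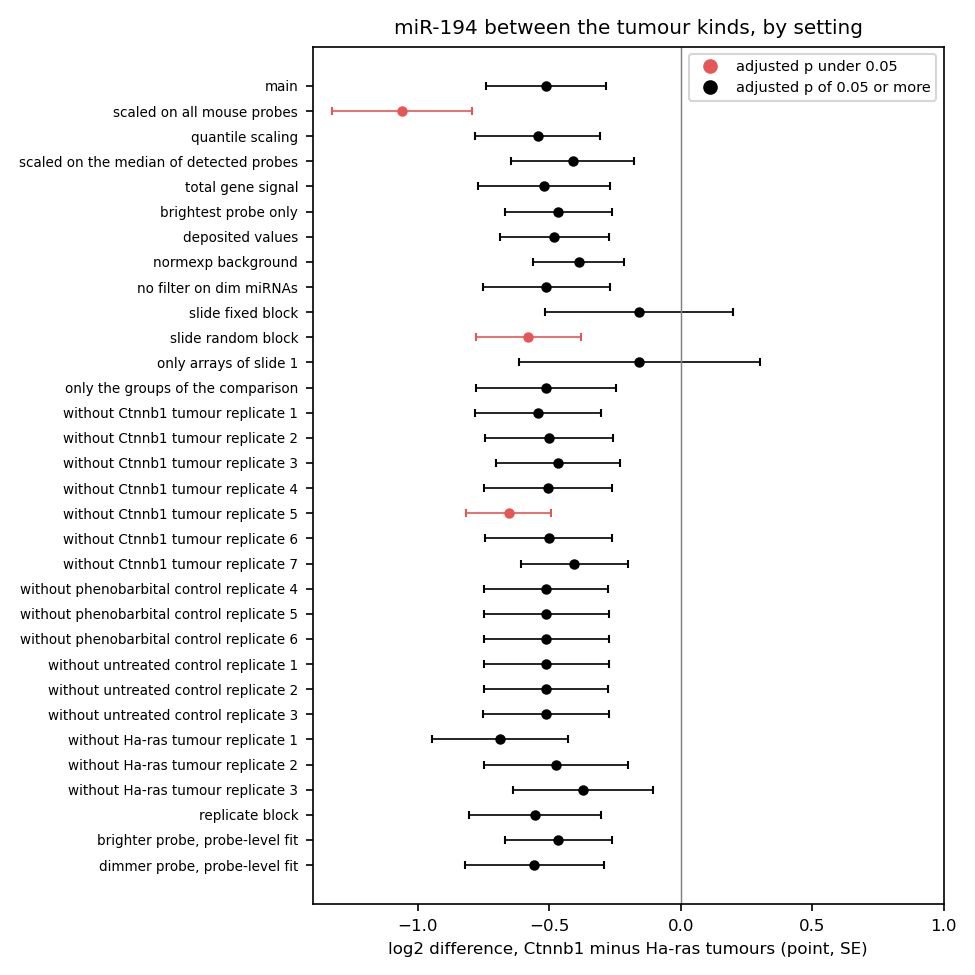
Log2 difference of miR-194 between Ctnnb1 and Ha-ras tumours (point) with its SE (bar), for the reported fit at the top and for each alternative below. All values lie below 0, from -1.06 to -0.16, and 3 alternatives had an adjusted p under 0.05.

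The last pairwise comparison was between the non-tumour groups, phenobarbital against untreated, where slides 2 and 3 each held both. miR-194 had a log2 fold change of -0.29 (SE 0.27, interval -0.86 to 0.29, adjusted p = 0.654) and miR-192 one of 0.04 (SE 0.14, interval -0.26 to 0.34, adjusted p = 0.928). The SE of miR-194 is shared over all groups and so carries the wide spread of the tumours. In a fit of the 6 control arrays alone the adjusted p was 0.196. The phenobarbital controls lay below the untreated ones in 3 of 3, as did 10.4% of all tested miRNAs in this direction. This separation of miR-194 depended on the values used. In the deposited values the groups overlapped, at 8.53 to 8.65 against 8.53 to 9.02. With scaling on all mouse probes they overlapped too, at 6.92 to 8.01 against 7.56 to 8.46. Of the 96 tested, 0 were called in limma (0%), and 6 (6.25%) had an unadjusted p under 0.05. Within slide 2, with 2 phenobarbital controls and 1 untreated one, miR-194 differed by -0.37. Within slide 3, with 1 phenobarbital control and 2 untreated ones, it differed by -0.23. This comparison shares its control arrays with both tumour comparisons above.

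The tumour effect of the Ctnnb1 arm minus that of the Ha-ras arm was -0.04 for miR-192 (SE 0.18, interval -0.44 to 0.35, adjusted p = 0.883). It was -0.22 for miR-194 (SE 0.35, interval -0.98 to 0.53, adjusted p = 0.685). A difference between the arms was thus not detected for either, where 2.08% of all tested miRNAs were called.

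**Figure D3:**
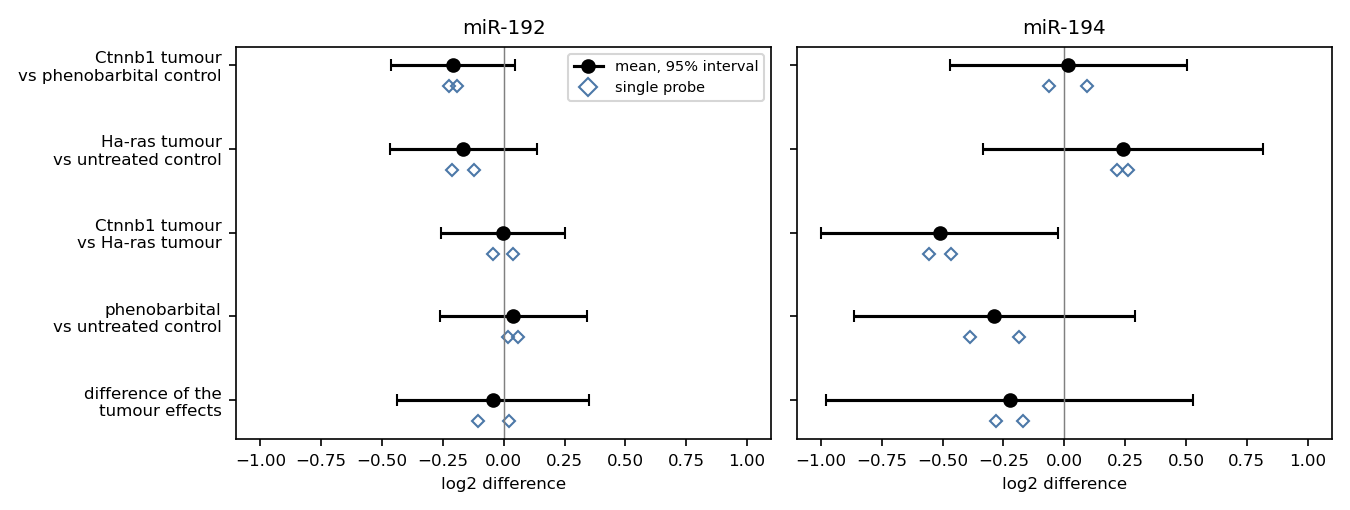
Log2 differences of miR-192 (left) and miR-194 (right) in the 5 comparisons, as the mean over the 2 probes with its 95% interval (black) and for each probe alone (open diamonds). For miR-192 all intervals include 0, and for miR-194 the interval between the tumour kinds, -0.999 to -0.02, is the only one that does not.

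Each member had 2 probes, which gave like answers. Across the 16 arrays the deviations of the probes from their group means had a correlation of 0.966 for miR-192 and 0.965 for miR-194, a description over arrays that share a scaling. Between the tumour kinds the brighter and dimmer miR-194 probes alone gave -0.47 (adjusted p = 0.0962) and -0.56 (adjusted p = 0.129) in a fit over all probes. For Ctnnb1 tumours against their controls they stood on different sides of 0, at -0.06 and 0.09. The spots of 1 miR-192 probe on an array had a median coefficient of variation of 2.97% for the dimmer and 5.30% for the brighter probe, and those of miR-194 of 7.84% and 4.50%.

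Because miR-192 and one copy of miR-194 share a transcript, the difference of their log2 levels was taken on each array, where the scaling of the array cancels. Its zero has no meaning, since the probes differ, and only its change between groups can be read. Phenobarbital controls had -2.91, -2.95 and -3.00 in replicates 4, 5 and 6. Untreated controls had -2.68, -2.69 and -2.50 in replicates 1, 2 and 3. Ha-ras tumours had -2.46, -2.36 and -1.84. These 3 groups did not overlap, in this order from low to high, and no share over other pairs of miRNAs was computed. The separation depended on the values used. In the deposited values Ha-ras tumours and untreated controls differed by 0.23 (exact permutation p = 0.4) and the control groups by -0.027 (exact permutation p = 0.9), and by the dimmer probes the first difference was 0.48 (exact permutation p = 0.2). A p above 0.1 in 3 against 3 means that the groups overlapped. The Ctnnb1 tumours ran from -3.04 through a median of -2.89 to -1.83, with 6 of the 7 between -3.04 and -2.70 and replicate 5 alone at -1.83.

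None of these shifts passed a test. Ha-ras tumours were higher than untreated controls by 0.41 and phenobarbital controls lower than untreated ones by a difference of -0.33, each with an exact permutation p of 0.1 (two-sided), the smallest that 3 against 3 allow. Ctnnb1 tumours differed from Ha-ras tumours by -0.51 (exact permutation p = 0.1) and from phenobarbital controls by 0.23 (exact permutation p = 0.433), where 7 against 3 could reach 0.00833. The difference between the tumour effects was -0.18 (exact permutation p = 0.613). Adjusted over the 5 comparisons, the p-values were 0.167 for the first 3, 0.542 and 0.613. Without Ctnnb1 tumour replicate 5 the value between the tumour kinds was -0.66 (adjusted exact permutation p = 0.0595). Over all removals of 1 array it ran from -0.66 to -0.32 (adjusted exact permutation p = 0.0595 to 0.542).

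Differences within slides where both groups were present are given with no test. Phenobarbital controls, untreated controls and Ha-ras tumours did not overlap over all arrays, so the signs on slides 2 and 3 were fixed in advance. Phenobarbital minus untreated controls gave -0.25 on slide 2 and -0.40 on slide 3. Ha-ras tumours minus the untreated control gave 0.58 on slide 2. On slide 1 the Ctnnb1 tumours differed from the Ha-ras tumour by -0.27.

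**Figure D4:**
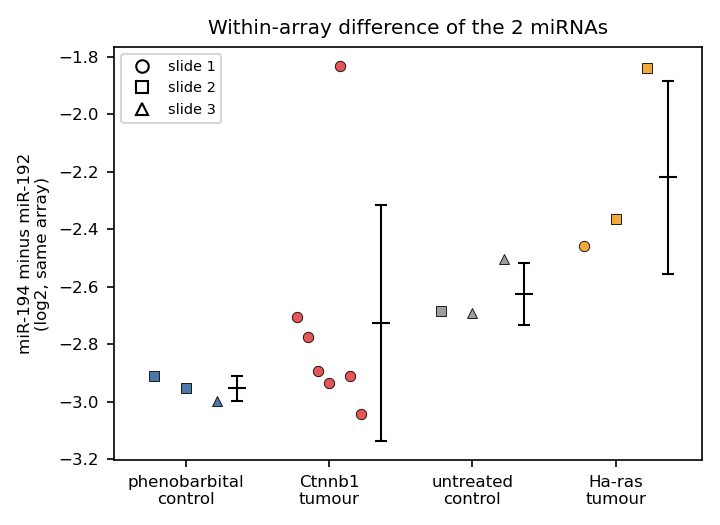
Log2 level of miR-194 minus that of miR-192 on the same array, by group. Points are arrays, shapes are slides, and bars give the mean and SD. Phenobarbital controls (-3.00 to -2.91), untreated controls (-2.69 to -2.50) and Ha-ras tumours (-2.46 to -1.84) did not overlap, while Ctnnb1 tumour replicate 5 stood at -1.83 and the other 6 at -3.04 to -2.70.

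How far the members varied together depended on single arrays. Their deviations from the group means had a Pearson correlation of 0.39 (permutation p = 0.231) and a Spearman correlation of 0.42 (permutation p = 0.171) over the 16 arrays. Without the 2 arrays farthest from the median of miR-192, Ctnnb1 tumour replicate 7 and Ha-ras tumour replicate 2, Pearson's r was 0.11 (permutation p = 0.797). Among the Ctnnb1 tumours alone it was 0.45 (exact permutation p = 0.295, n = 7). Without Ctnnb1 tumour replicate 5, left out after its values were seen, it was 0.94 over the other 6, a value given with no test. This was 1 relation, given for nested sets of arrays.

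By log2 levels with the group differences included, other miRNAs followed each member more closely than its partner did. This is a description over 16 arrays that share a scaling. Of 71 others detected on all arrays, the likest to miR-194 by Pearson's r of log2 levels were miR-30a (0.85), miR-122 (0.83) and miR-101b (0.78), where miR-192 stood at 0.24 and the median was -0.00322. miR-122 is the most abundant miRNA of hepatocytes. For miR-192 they were miR-101a (0.69), let-7g (0.61) and miR-10a (0.60), against a median of 0.19. In the ranking of likeness to miR-192, miR-194 came 34th. By deviations from the group means, r with miR-194 was 0.90 for miR-30a, 0.90 for miR-122 and 0.70 for miR-101b. With miR-192 it was 0.54 for miR-101a, 0.37 for let-7g and 0.37 for miR-10a. The 2 members stood at 0.39 with each other by this measure, above let-7g and miR-10a.

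**Figure D5:**
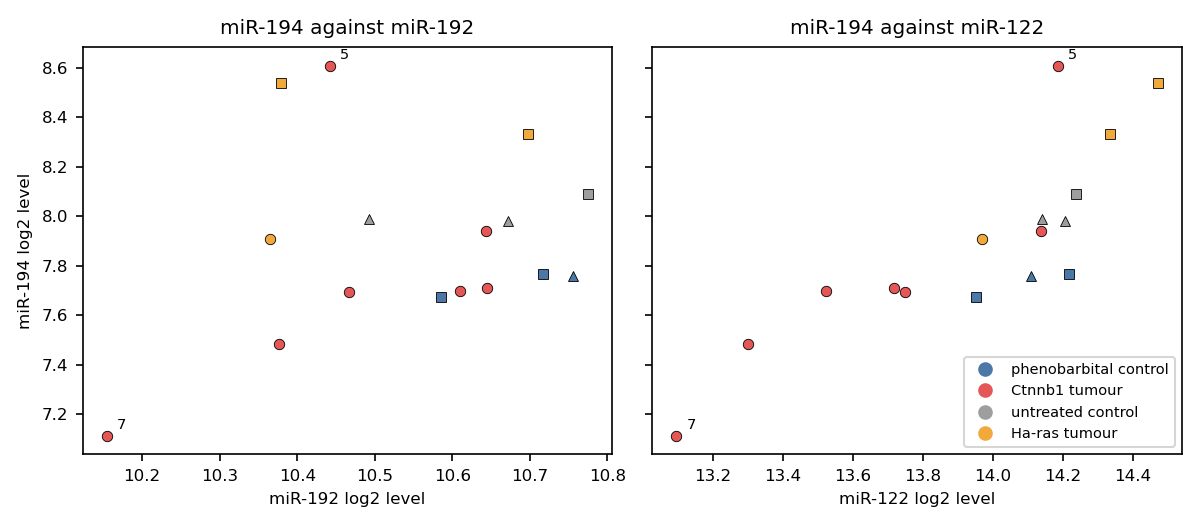
Log2 level of miR-194 against that of miR-192 (left) and of miR-122 (right) on each array, coloured by group, with shapes for slides as in the plot of levels. Ctnnb1 tumour replicates 5 and 7 are numbered: replicate 7 had the lowest value of all 3 miRNAs (7.11, 10.15 and 13.09), and replicate 5 the highest miR-194 (8.61) beside a middling miR-192 (10.44).

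Of 8 other hepatocyte-linked miRNAs (miR-122, miR-148a, miR-101a, miR-101b, miR-22, miR-378, miR-30a and miR-30c), all 8 were detected on every array. In Ctnnb1 tumours against phenobarbital controls 0 were called in either direction, with a median log2 fold change of -0.27 beside -0.05 over all tested miRNAs. In Ha-ras tumours against untreated controls 1 of 8, miR-378 of the Ppargc1b gene, was lower (-0.41, adjusted p = 0.0162), where 19.8% of all tested miRNAs were lower, with a list median of -0.22 beside -0.06. Between the tumour kinds 4 were lower in Ctnnb1 tumours and 1 higher, where 13.5% of all tested miRNAs were lower and 16.7% higher, and the list had a median of -0.40 beside 0.08. Lower were miR-101b (-0.63, adjusted p = 0.0186), miR-30a (-0.77, adjusted p = 0.0217), miR-30c (-0.59, adjusted p = 0.0226) and miR-122 (-0.59, adjusted p = 0.0407). miR-22 was higher (0.55, adjusted p = 0.0281). Between the control groups and for the difference of tumour effects 0 of 8 were called, with list medians of -0.18 and -0.22 beside 0.05 and 0.01. The 3 miRNAs likest to miR-194 are among those called lower, which their choice partly fixes, since the likeness was taken over all 16 arrays with the group differences included.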

How the data were processed

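MicroRNA levels were measured on one-colour Agilent mouse miRNA arrays hybridised with 25 ng of labelled total RNA, per the labels' protocols. The deposited scanner files hold spot intensity values from Agilent Feature Extraction 10.7.3.1, per the file headers, which are background-subtracted and not normalised between arrays. A deposited table of log2 values was an alternative: R 2.14.1 is named for it in the submitters' processing notes, while how it was normalised is not given there.

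Control and outlier-flagged spots were left out, which removed up to 7 of the members' 60 spots on an array. Spots were averaged per probe, and over 0.5 of them had to be well above background for detection. Each array was scaled to its 75th percentile of the 117 probes detected everywhere, times a common constant, with a floor of 24.96 before log2. A miRNA's level is the mean of its probes. limma 3.58.1 in R 4.3.3 (lmFit, eBayes, 4 group means, 16 arrays) was run on the 96 mouse miRNAs detected throughout at least 1 group, with Benjamini-Hochberg adjustment over them and a threshold of 0.05, and was tested on simulated data.

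The within-array difference was tested by exact permutation over samples, and correlations by 100000 permutations within groups or exactly. Alternatives changed scaling, background correction, signal, probe summary, filter, slide, pairing and the arrays used. The members, lists, comparisons and the rule for naming miRNAs (the members and their probes, the 3 likest miRNAs of each, up to 3 hepatocyte-linked miRNAs by smallest p and the epithelial markers) were chosen with earlier results of these data known. miR-122 and miR-22 in the comparison of tumour kinds, and the mesenchymal, endothelial and leukocyte markers, were added after their values were seen.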

Additional observations from a re-analysis of the deposited data

Results flagged for a closer look

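Among the 7 Ctnnb1 tumours, replicate 5 stood apart from the others in the difference of miR-194 and miR-192, at -1.83 on the log2 scale, where the next highest tumour was at -2.70. The gap was 0.722 of the group's range, above the critical value of 0.568 for 7 samples (Dixon's test). The same replicate stood apart for hepatocyte-linked miR-22, at 12.38, with the next tumour at 11.81 and a gap of 0.664 of the range. Chance alone sets apart about 1 in 20 such groups, and 11 quantities were examined. miR-192 and miR-194 taken singly did not exceed the critical value. The scaling percentile of this array, 463, was the lowest of the 7 tumours, and its share of spots well above background, 13.3%, was the lowest too. The part of these in its values was not tested.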

How the results depend on the processing

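Of 427 alternative values for the 15 results on the members, 386 kept their direction and their side of the threshold and 41 did not. The 386 include values whose direction was fixed in advance. Leaving out an array of a group outside the comparison, dropping the filter or fitting only the compared groups leaves a member's difference unchanged. Only miR-194 between Ctnnb1 and Ha-ras tumours passed the threshold under an alternative: -1.06 (adjusted p = 0.00703) with scaling on all mouse probes, -0.58 (adjusted p = 0.0345) with slide as a random block, and -0.65 without Ctnnb1 tumour replicate 5 (adjusted p over its alternatives 0.00703 to 0.882). Under the all-probe scaling the 96 tested miRNAs had a median of -0.32 in that comparison, where it was 0.08 before, and the -1.06 includes this shift. The other changes were of sign in values that passed no test, and their cause was not tested. For miR-192, scaling on all mouse probes gave -0.55 between tumour kinds, 0.015 in Ctnnb1 tumours against phenobarbital controls, 0.41 in Ha-ras tumours against untreated controls and -0.16 between controls. The deposited values gave 0.00068 in Ha-ras tumours against untreated controls and -0.095 between controls, where quantile scaling gave -0.021, the total gene signal -0.049, normexp -0.0073 and slide 2 alone -0.12. Between tumour kinds miR-192 was at 0.10 with scaling on the median, 0.11 with slide as a fixed block or slide 1 alone, and 0.039 by the dimmer probe, and its difference of tumour effects was at 0.074, 0.086 and 0.020 under the median, fixed block and dimmer probe. For miR-194 in Ctnnb1 tumours against phenobarbital controls the total gene signal gave -0.068, the brightest probe (also in a fit over all probes) -0.062, the random block -0.061 and the deposited values -0.13, and with these values the difference of miR-194 and miR-192 was -0.12. That miR-194 comparison moved furthest the other way, from 0.02 to 0.53 with slide as a fixed block (adjusted p = 0.775), which is outside its interval, and to 0.27 with the replicate block and 0.24 with scaling on all mouse probes. No slide holds both groups, so the fixed block reaches it only through the other groups. The difference of tumour effects for miR-194 was 0.14 with slide as a fixed block.

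Whether the replicate numbers pair the samples could not be decided from correlations of their deviations. Same-numbered ones correlated at 0.24, -0.063 and -0.77 in the phenobarbital arm and 0.58, -0.68 and -0.094 in the water arm. Between tumour kinds they correlated at -0.053, 0.24 and -0.18. Differently numbered ones ran from -0.54 to 0.68, a range that overlaps these values. With the replicate block, miR-192 between tumour kinds was 0.015, the differences of tumour effects were 0.046 for miR-192 and 0.032 for miR-194, and the numbers of miRNAs called were 0, 13, 3 and 4 for Ctnnb1 tumours against their controls, Ha-ras tumours against theirs, tumour kinds and the difference of effects. The controls share no numbers.

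The number of miRNAs called in Ctnnb1 tumours against controls, 8, became 0 with scaling on all probes, 4 on the median, 4 with normexp, 5 without the filter, and 1 and 20 with slide as a fixed and a random block. In Ha-ras tumours against controls, 28 became 12 with scaling on all probes, 12 with the deposited values, 18 without the filter, 9 with the fixed block and 2 on slide 2 alone. Between tumour kinds, 29 became 6 without the filter, 8 with the fixed block, 6 on slide 1 alone and 15 with these groups alone. Between controls, 0 became 5 with the deposited values, 1 without the filter and 11 on slide 3 alone. For the difference of effects, 2 became 1 with the total gene signal, 4 with the brightest probe, 0 with the deposited values and 4 with the random block.

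Leaving out 1 array at a time, in the same order of comparisons, miR-192 ranged from -0.26 to -0.16, -0.27 to -0.10, -0.061 to 0.10, -0.038 to 0.10 and -0.11 to 0.065, and miR-194 from -0.13 to 0.12, 0.10 to 0.42, -0.69 to -0.37, -0.31 to -0.25 and -0.40 to -0.084. The difference of miR-194 and miR-192 ranged from 0.076 to 0.28, 0.22 to 0.53, -0.66 to -0.32, -0.36 to -0.26 and -0.33 to 0.0100. The numbers called ranged from 5 to 19, 13 to 33, 5 to 29, 0 to 2 and 2 to 5. Normexp for the within-array difference was not run. No slide could give a value for Ctnnb1 tumours against their controls or for the difference of effects. With 3 arrays in most groups, shifts of the members inside the intervals given were not excluded, and miR-215 lay below background.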

Other observations

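The Ctnnb1 tumours at the extremes of miR-194 were also at the extremes of some other hepatocyte-linked miRNAs. No share over all detected miRNAs was computed, so this cannot be called particular to the list. The 8 include miR-30a, miR-122 and miR-101b, the likest to miR-194, which partly fixes it. Replicate 7, lowest for both miR-192 and miR-194, was the lowest of the 7 tumours for 5 of the 8 (miR-122, miR-101a, miR-101b, miR-30a and miR-30c) and the highest for 1, miR-148a. Replicate 5, highest for miR-194, was the highest for 4 of the 8 (miR-122, miR-22, miR-30a and miR-378), while its miR-192 level of 10.44 lay among the others. Replicate 1, not at an extreme of miR-194, was the highest for 3 of the 8.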
